A study of Mus musculus with 4 samples.

Results

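CC chemokines are small secreted proteins that share a pair of adjacent cysteines, and CC receptors are the G protein-coupled receptors on leukocytes that bind them. The genes taken here have a symbol that begins with Ccl or Ccr followed directly by a number, and Ccr7, Ccr8, Ccl17 and Ccl22 were left out. They were 36 of the 32285 genes in the count tables, 28 of them ligand genes and 8 receptor genes, under 30 symbols. Of the 36, 24 had at least 1 UMI (unique molecular identifier, 1 counted RNA molecule) in any section and 12 had none.

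The values come from 10x Genomics Visium sections of MC38 tumors, in which barcoded spots capture the RNA of the tissue lying on them. MC38 is a mouse colon carcinoma line, and its cells had been placed under the skin of female F1 hosts aged 8 to 12 weeks. CC075F1 hosts were C57BL/6J x CC075/UncJ and CC080F1 hosts were C57BL/6J x CC080/TauUncJ, with 2 tumors of each host. The study classes the former strain as a responder and the latter as a non-responder to anti-PD1, a checkpoint antibody that these hosts did not receive. Every host had been given a single intraperitoneal dose of 200 µg of isotype control antibody once its tumor measured 75 to 110 mm3, and the tumor was removed 48 h later.

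The sections held 2710 to 3276 spots, 82594649 to 146460975 UMIs and a median of 31139 to 41740 UMIs per spot. A spot covers several cells, so fewer cells of a type and less RNA per cell cannot be told apart. Skin, muscle or fat genes passed 0.5% of a spot's UMIs in 46 spots of CC075F1 replicate 2 and 1 spot of CC080F1 replicate 2, all at the tissue edge. Of the epithelial markers of a carcinoma, Krt8, Krt18, Epcam and Cdh1 together came to 0.85 to 2.44 CPM (UMIs per 1000000 UMIs of the section). The macrophage markers Adgre1, Cd68, Csf1r, C1qa, C1qb and Mrc1 came to 1295 to 1864 CPM. Sections shared 2016 to 2793 spot barcodes per pair, which are fixed grid positions, and no pair of sections had identical gene totals.

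In a tumor, CC chemokines are known for drawing in leukocytes. Ccl2, Ccl7 and Ccl12 are ligands of Ccr2, the receptor of inflammatory monocytes. Ccl3, Ccl5, Ccl6, Ccl7 and Ccl9 are ligands of Ccr1, a receptor carried by macrophages and granulocytes. Ccl11 and Ccl24, the eotaxins, act on Ccr3 of eosinophils.

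The genes lie in clusters. On chromosome 11 of GRCm38, 6 ligand genes (Ccl2, Ccl7, Ccl11, Ccl12, Ccl8 and Ccl1) span 270 kb at chr11:82035571-82305690, and 5 more (Ccl5, Ccl9, Ccl6, Ccl3 and Ccl4) span 139 kb at chr11:83525778-83664683. Ccr1, Ccr1l1, Ccr3 and Ccr2 span 151 kb at chr9:123962124-124113557. A further 7 rows are copies of Ccl19, Ccl21 and Ccl27a genes on unplaced scaffolds, all at 0 UMIs, so the counts of Ccl19, Ccl21a and Ccl27a may miss reads shared with a copy. Ccl25 overlaps Elavl1, Ccl27a overlaps Il11ra1 and Ccr10 overlaps Cntnap1 on the opposite strand.

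The sequences just before the start of 4 of these ligand genes are shown because Ccl6 and Ccl9 were the neighbouring pair called at the tissue edge, and Ccl8 and Ccl12 as a neighbouring pair of the other cluster that was not called there. The edge CPM over the interior CPM was 1.34, 2.22, 1.24 and 2.79 for Ccl8 and 0.73, 1.01, 1.17 and 0.66 for Ccl12 in CC075F1 replicates 1 and 2 and CC080F1 replicates 1 and 2. Each is the 250 bases upstream of the start in RefSeq on GRCm38.p6, read 5′ to 3′ on the gene's strand. A RefSeq window was matched for 21 of the 30 symbols. Capitals mark TATAAA and GAGGAA, the core letters of the TATA box and of the PU.1 motif, on either strand.
Ccl6, chr11:83593088-83593337, minus strand: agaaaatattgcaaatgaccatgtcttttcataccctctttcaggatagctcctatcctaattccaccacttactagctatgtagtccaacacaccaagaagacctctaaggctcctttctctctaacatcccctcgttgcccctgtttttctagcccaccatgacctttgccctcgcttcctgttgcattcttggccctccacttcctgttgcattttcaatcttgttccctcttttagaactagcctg
Ccl9, chr11:83578637-83578886, minus strand: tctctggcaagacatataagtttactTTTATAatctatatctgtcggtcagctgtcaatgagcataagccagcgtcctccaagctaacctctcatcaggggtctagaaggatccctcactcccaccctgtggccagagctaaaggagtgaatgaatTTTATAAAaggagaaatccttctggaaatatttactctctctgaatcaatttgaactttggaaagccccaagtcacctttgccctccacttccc
Ccl8, chr11:82114935-82115184, plus strand: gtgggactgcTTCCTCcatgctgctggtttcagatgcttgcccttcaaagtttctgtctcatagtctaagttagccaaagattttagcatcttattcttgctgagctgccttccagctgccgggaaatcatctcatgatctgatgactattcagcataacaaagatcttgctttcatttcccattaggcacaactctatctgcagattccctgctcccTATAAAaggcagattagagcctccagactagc
Ccl12, chr11:82101595-82101844, plus strand: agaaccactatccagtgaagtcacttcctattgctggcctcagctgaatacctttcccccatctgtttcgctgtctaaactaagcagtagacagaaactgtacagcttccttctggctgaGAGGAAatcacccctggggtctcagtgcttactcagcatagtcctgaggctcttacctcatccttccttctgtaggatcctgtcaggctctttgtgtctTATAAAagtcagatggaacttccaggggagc

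The motif letters differ among the 4 windows. TATAAA begins 32 bases before the start in Ccl8 and 31 bases before it in Ccl12, while Ccl9 holds it 224, 94 and 92 bases before the start, the last pair overlapping, and Ccl6 does not hold it. GAGGAA begins 240 bases before the start of Ccl8 and 130 bases before that of Ccl12, and is in neither of the others. Of all 32851 RefSeq windows of this length, 12.4% hold TATAAA and 23.3% hold GAGGAA. The STAT motif TTCNNNGAA, also searched on both strands, was in 0 of the 4 windows and in 7.02% of all windows. Compared base by base without gaps, Ccl8 and Ccl12 were identical at 36% of positions and the other 5 pairings at 20% to 26.8%.

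Levels were compared first. The RNA of these ligands was dominated by Ccl5 and by the Ccr2 ligands. Ccl5, a ligand of Ccr1 and Ccr3, stood at 391 and 345 CPM in CC075F1 replicates 1 and 2 and at 327 and 621 CPM in CC080F1 replicates 1 and 2. It made up 34.7% to 50.6% of the UMIs of the 28 ligand genes in a section, and its level in CC080F1 replicate 2 lay above the other 3 sections, which were close together. CPM here is not divided by gene length, because these libraries count molecules captured by their 3′ end, and capture may differ between genes.

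The Ccr2 ligands came next. Ccl2, the main monocyte attractant, stood at 138 and 157 CPM in CC075F1 and at 260 and 163 CPM in CC080F1. Ccl12, a mouse relative of Ccl2, stood at 113 and 104 CPM in CC075F1 and at 159 and 147 CPM in CC080F1. Ccl7, a ligand of Ccr1, Ccr2 and Ccr3, stood at 66.5 and 117 CPM in CC075F1 and at 95.4 and 92.7 CPM in CC080F1. The strains overlapped for Ccl7 and not for Ccl2 and Ccl12, and between Ccl2 and Ccl12 the section ranges overlapped.

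Ccl8, also made by macrophages, varied more between sections. It stood at 90.7 and 128 CPM in CC075F1 and at 24.6 and 74.2 CPM in CC080F1. A UMI of it was found in 79.7% (exact 95% interval 78.1% to 81.2%) and 89.5% (88.4% to 90.5%) of CC075F1 spots and in 44.9% (43.0% to 46.7%) and 65.3% (63.6% to 67.0%) of CC080F1 spots. The lower CC075F1 section was above the higher CC080F1 section, and these intervals cover counting error only.

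Ccl9 and Ccl6, a pair of Ccr1 ligands made by myeloid cells, were lowest in the same section. Ccl9 stood at 41.4 and 42.9 CPM in CC075F1 and at 36.0 and 61.7 CPM in CC080F1. Ccl6 stood at 26.5 and 39.1 CPM in CC075F1 and at 12.4 and 41.0 CPM in CC080F1, a range of values within CC080F1 that was wider than the gap between the strains.

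Ccl3 and Ccl4, made by activated macrophages and T cells, had section values that did not overlap between the strains. Ccl4 stood at 13.9 and 24.4 CPM in CC075F1 and at 9.32 and 9.72 CPM in CC080F1. Ccl3 stood at 7.20 and 9.59 CPM in CC075F1 and at 4.81 and 4.27 CPM in CC080F1. The ratio of Ccl4 to Ccl3 was 1.92 to 2.54 over the 4 sections. Spots with a Ccl4 UMI made up 28.9% (exact 95% interval 27.2% to 30.6%) and 52.6% (50.8% to 54.3%) of the CC075F1 sections and 23.5% (21.9% to 25.1%) and 23.6% (22.1% to 25.1%) of the CC080F1 sections.

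The remaining ligands were at about 10 CPM or lower. Ccl25, known as a thymic and gut chemokine, stood at 9.32 and 7.52 CPM in CC075F1 and at 9.96 and 8.08 CPM in CC080F1. Ccl1, a ligand of Ccr8, stood at 2.66 and 0.935 CPM in CC075F1 and at 0.791 and 1.57 CPM in CC080F1. Ccl27a stood at 1.38 and 1.85 CPM in CC075F1 and at 0.887 and 1.06 CPM in CC080F1. Ccl11 stood at 0.932 and 1.07 CPM in CC075F1 and at 0.727 and 1.01 CPM in CC080F1. Only Ccl27a among these did not overlap between the strains.

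Ccl24 was mostly in a single section, with 2.76 CPM in CC075F1 replicate 1 against 0.128 to 0.399 CPM in the other 3. Ccl19, a ligand of Ccr7, ranged from 0.182 to 0.932 CPM and Ccl28 from 0.164 to 0.823 CPM. Ccl21a had 41 UMIs in CC075F1 replicate 2 and 1 in the other sections together, and 38 of the 41 lay at the tissue edge, where that section held its skin, muscle or fat spots. Whether these come from other tissue was not tested. Ccl20, the Ccr6 ligand, had 3 UMIs in all.

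Of the receptors, Ccr2 and Ccr1 were found in 54.4% to 81.1% of the spots of a section and the others in 1.92% or fewer. Ccr2 stood at 46.3 and 21.2 CPM in CC075F1 and at 63.7 and 50.1 CPM in CC080F1, without overlap. Ccr1 stood at 40.9 and 29.1 CPM in CC075F1 and at 30.4 and 39.3 CPM in CC080F1. Ccr2 was the higher of both in 3 sections and Ccr1 in CC075F1 replicate 2, so they had no fixed order across sections.

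Ccr10, a receptor of skin-homing T cells, ranged from 0.311 to 0.533 CPM, Ccr3 from 0.075 to 0.224 CPM and Ccr9, a gut-homing receptor, from 0.061 to 0.204 CPM. Ccr4 had 4 UMIs in all. Ccr6, Ccr1l1, Ccl26, Ccl27b and both rows each of Ccl21b and Ccl21c had no UMI in any section, as had the second rows of Ccl19, Ccl21a and Ccl27a. A count of 0 allows up to 0.0205 to 0.0363 CPM at these depths.

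**Figure D1:**
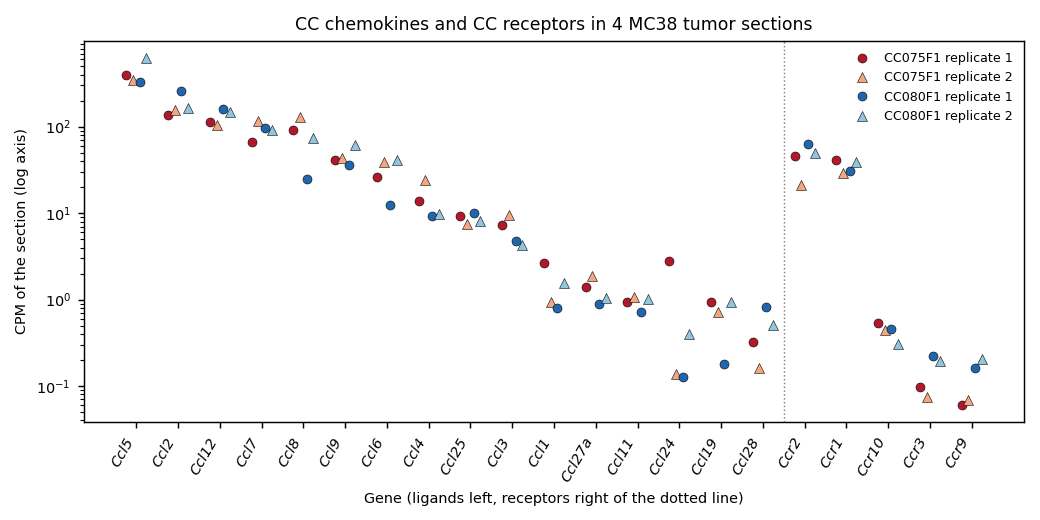
CPM (log axis) of the 21 CC chemokine and CC receptor genes with UMIs in all 4 sections and a mean of at least 0.05 CPM, ligands left and receptors right of the dotted line. Each point is 1 section, red for CC075F1 and blue for CC080F1, circles for replicate 1 and triangles for replicate 2. Ccl5 is highest in every section at 327 to 621 CPM, and Ccr3 and Ccr9 are at 0.224 CPM or below.

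The strains were then compared to ask whether isotype-treated tumors of the responder and non-responder hosts differed in these genes. UMIs summed over each section were fitted with edgeR's quasi-likelihood test over all 15572 genes that passed its filter on low counts, 21 of the 36 genes among them. The fit called 0 of the 21 at an adjusted p under 0.05, where it called 14 of all genes (0.0899%). At an unadjusted p under 0.05 it had 5 of the 21, against 5.43% of all genes. The median log2 fold change of CC075F1 over CC080F1 was 0.37 over the 21 genes and -0.02 over all genes, with 14 of the 21 above 0 against 47.5% of all genes. The median over the CC genes was 0.0053 when scaled by library size alone, which put 11 of the 21 above 0, 0.11 without CC075F1 replicate 2, 0.21 without CC080F1 replicate 1 and 0.61 without CC080F1 replicate 2.

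The 5 were the ligands Ccl3, Ccl4, Ccl8, Ccl27a and Ccl28. Ccl3 had a log2 fold change of 1.27 (SE 0.34, edgeR adjusted p = 0.497) and Ccl4 of 1.41 (SE 0.40, edgeR adjusted p = 0.571). Ccl8 had 1.496 (SE 0.56, edgeR adjusted p = 0.830). Ccl27a had 1.10 and Ccl28 had -1.18, each with an edgeR adjusted p of 0.830. Ccr2 had -0.51 (SE 0.24, edgeR adjusted p = 0.830). None of these passed the test. Their sizes moved with single sections. Ccl3, Ccl4, Ccl8 and Ccl27a had 0.72, 0.59, 0.89 and 0.55 without CC075F1 replicate 2, and Ccr2 then had -0.24. Without CC075F1 replicate 1, Ccr2 had -0.83. Ccl8 had 0.88 without CC080F1 replicate 1 and 2.60 without CC080F1 replicate 2.

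The count of 0 changed with the test, the filter and the sections used. DESeq2 called Ccl3 alone (log2 fold change 1.29, DESeq2 adjusted p = 0.0416), whose adjusted p ranged from 0.00161 to 0.776 over the alternatives. Without CC080F1 replicate 2, edgeR called Ccl24, Ccl8, Ccl6 and Ccl4, and without CC080F1 replicate 1 it called Ccl4. Without the filter on low counts it called 5, where it called 480 of all genes (2.13%). DESeq2 called 194 of all genes (1.25%), and calls over all genes also rose without either CC080F1 section. Without CC075F1 replicate 1 the log2 fold change of Ccl24 went from 2.48 to -0.41.

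The summed CPM of some cell marker lists did not overlap between the strains either. The T cell markers Cd3e, Cd3d, Cd3g, Cd8a and Cd4 came to 39.7 and 30.9 CPM in CC075F1 and to 10.9 and 8.89 CPM in CC080F1, all 5 detected in each section. Cd3e, Cd3d, Cd3g and Cd8a were higher in CC075F1, and Cd4 overlapped, at 0.751 and 0.259 CPM against 0.235 and 0.453 CPM. The 6 macrophage markers summed to 1864 and 1860 CPM against 1295 and 1484 CPM. Of these, C1qa and C1qb were higher in CC075F1, Mrc1 was lower, at 45.4 and 23.1 CPM against 72.4 and 60.4 CPM, and Adgre1, Cd68 and Csf1r overlapped. The 4 fibroblast markers summed to 1789 and 844 CPM against 2710 and 2389 CPM, with Col3a1 and Dcn lower in CC075F1 and Col1a1 and Pdgfra overlapping. Their part in the values of Ccl3, Ccl4 and Ccl8 was not tested.

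By CPM, 10 of the 21 genes did not overlap between the strains, where 36.9% of all genes did not. Ccl3, Ccl4, Ccl8 and Ccl27a were higher in CC075F1, 4 of 21 where 6.63% of all genes were, and Ccl2, Ccl12, Ccl28, Ccr2, Ccr3 and Ccr9 were higher in CC080F1, 6 of 21 where 30.3% of all genes were. In the fit, which rescales the sections by TMM, Ccl2 had a log2 fold change of -0.15 (SE 0.33, edgeR adjusted p = 0.924) and Ccl12 of -0.17 (SE 0.23, edgeR adjusted p = 0.881).

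The share of spots with a UMI was read in the same way. Of the 21 genes, 11 had shares that did not overlap between the strains, where 49.1% of all genes had the same. Ccl3, Ccl4, Ccl8, Ccl27a and Ccr10 had higher shares in CC075F1, 5 of 21 where 5.41% of all genes had this, and the other 6 of the 11, Ccl5, Ccl12, Ccl28, Ccr2, Ccr3 and Ccr9, had higher shares in CC080F1, where 43.7% of all genes had this. With each spot thinned to 10000 UMIs, the shares of Ccl4 were 12.1% and 19.0% against 7.97% and 9.70%, those of Ccl8 51.5% and 59.4% against 20.8% and 37.2%, and those of Ccr2 35.9% and 21.0% against 45.4% and 37.5%. Those of Ccl5 then overlapped, at 90.6% and 91.7% against 89.8% and 96.9%, and those of Ccl2 did not. This left out 53 to 205 shallower spots per section. With 2 sections per strain an exact permutation test cannot give a p below 0.333.

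The place of the RNA within a section was described by Moran's I, which is near 0 for values scattered at random over neighbouring spots and rises toward 1 as they cluster, on log2(CPM + 1). Ccl5 and Ccl8 were the most clustered, with means over the 4 sections of 0.33 ± 0.10 (SD, n = 4) and 0.31 ± 0.12 (SD, n = 4). Ccl12, Ccl2 and Ccl7 followed at 0.25, 0.23 and 0.22. Ccr2, at 0.16, was the most clustered receptor, with Ccr1 at 0.09. Ccl25, at 0.03, was nearly unstructured. The index falls with low counts, so it is not a ranking of biology across genes of unlike level.

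**Figure D2:**
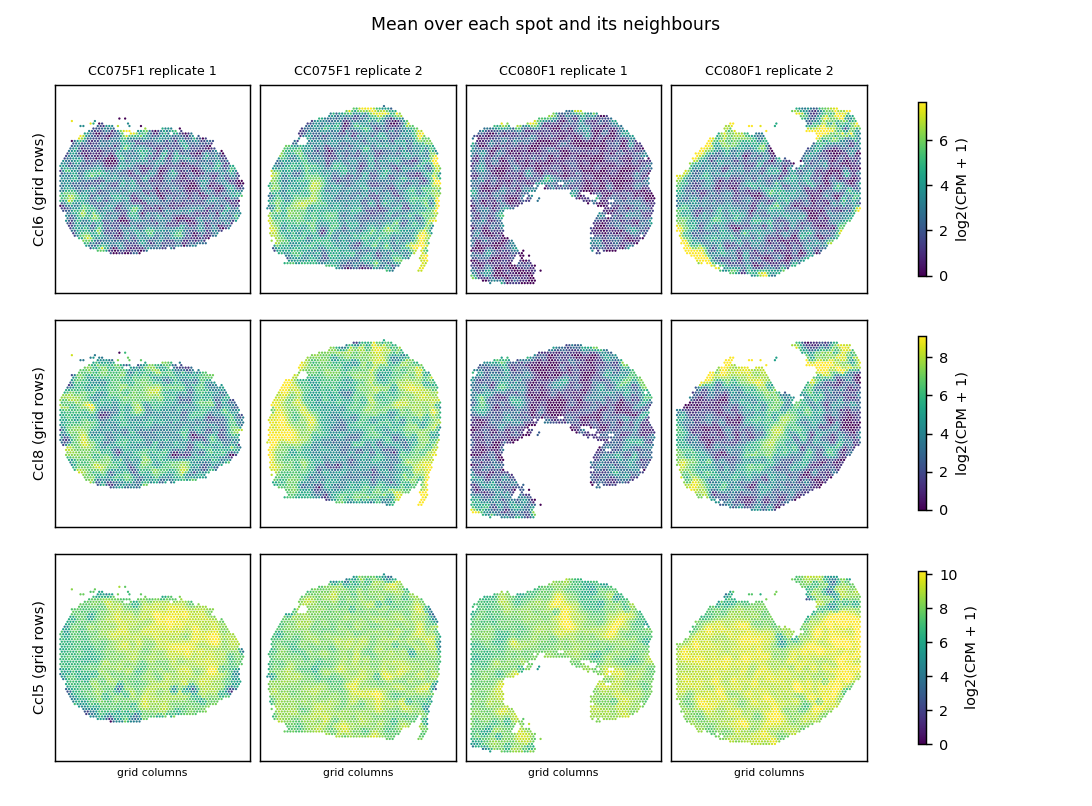
Maps of the 4 sections (columns, grid positions to scale) for Ccl6, Ccl8 and Ccl5 (rows), each spot coloured by log2(CPM + 1) averaged over itself and its neighbours on tissue, with 1 colour scale per gene. Ccl6 is brightest along parts of the rim in CC075F1 replicate 2 and CC080F1 replicate 2, where the median of its edge spots is 4.93 and 4.68 against 3.59 and 2.64 in the interior. Ccl5 covers the interior, with medians of 9.18 in the interior and 8.15 at the edge of CC080F1 replicate 2.

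Distance from the tissue edge was compared next. Edge spots were those within 3 grid steps of the nearest position off the tissue, 568 and 665 spots in CC075F1 and 880 and 648 spots in CC080F1. Edge spots were shallower, with a median of 18032 to 30120 UMIs against 33592 to 46146 in the interior. The edgeR fit on summed edge and interior UMIs, with the section as a block, called 166 of 15089 genes (1.1%), 151 of them (1%) higher and 15 (0.0994%) lower at the edge. It called 3 of the 21 tested CC genes, the ligands Ccl11, Ccl6 and Ccl9, all higher at the edge.

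Ccl11, the eotaxin that draws eosinophils, was the steepest of the 3. Its CPM at the edge and in the interior was 2.68 and 0.658 in CC075F1 replicate 1, 4.30 and 0.581 in CC075F1 replicate 2, 1.32 and 0.482 in CC080F1 replicate 1 and 3.30 and 0.580 in CC080F1 replicate 2. The edge was higher in 4 of 4 sections, and the groups did not overlap. This was a log2 fold change of 2.18 (SE 0.25, edgeR adjusted p = 0.0141), or 4.54-fold. These values rest on 30 to 82 edge UMIs per section.

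Ccl6 rose at the edge by 1.43 on the log2 scale (SE 0.23, edgeR adjusted p = 0.0382), or 2.69-fold. Its CPM at the edge and in the interior was 43.5 and 23.8 in CC075F1 replicate 1, 87.3 and 31.8 in CC075F1 replicate 2, 20.5 and 9.13 in CC080F1 replicate 1 and 130 and 24.2 in CC080F1 replicate 2. The edge of CC080F1 replicate 1 was below the interiors of the other 3 sections, so the rise shows within sections and not in pooled values.

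Ccl9, the neighbour of Ccl6 on chromosome 11, rose less, by 0.49 on the log2 scale (SE 0.08, edgeR adjusted p = 0.0354), or 1.41-fold. Its CPM at the edge and in the interior was 50.6 and 39.9 in CC075F1 replicate 1, 61.2 and 40.2 in CC075F1 replicate 2, 46.8 and 31.6 in CC080F1 replicate 1 and 91.8 and 56.1 in CC080F1 replicate 2. The ratio was 1.27 to 1.64, the narrowest range of the 3.

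The calls depended on which sections were used. Without CC075F1 replicate 1 none of the 20 genes tested passed, with Ccl11 at 2.25 (edgeR adjusted p = 0.0801), and without CC080F1 replicate 2 only Ccl6 passed (1.07, edgeR adjusted p = 0.0348). Over all alternatives the adjusted p ranged from 5.11e-10 to 0.617 for Ccl11 and from 0.000254 to 0.9997 for Ccl6, the highest without the section block. Without CC075F1 replicate 2 Ccl6 missed the threshold. Without CC080F1 replicate 1 Ccl24, Ccr2, Ccl12, Ccl8 and Ccl5 passed as well, 8 genes in all. Calls over all genes rose there too, to 946 (6.35%). The fold changes of Ccl11, Ccl6 and Ccl9 stayed above 0 in each of the 14 alternatives run.

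Further genes had an unadjusted p under 0.05 without passing, so that 9 of the 21 did so, where 18.3% of all genes did. Ccl8 was at 116, 245, 28.5 and 161 CPM at the edge and 86.7, 110, 23.1 and 57.7 CPM in the interior of CC075F1 replicates 1 and 2 and CC080F1 replicates 1 and 2 (log2 fold change 0.78, SE 0.18, edgeR adjusted p = 0.0831). Ccr2 was at 59.0, 33.3, 64.0 and 60.8 CPM at the edge and 44.3, 19.5, 63.6 and 48.1 CPM in the interior (0.31, SE 0.08, edgeR adjusted p = 0.121). Ccl5 was the 1 gene of the 9 with a negative value, at 285, 336, 329 and 392 CPM at the edge and 408, 347, 327 and 664 CPM in the interior (-0.40, SE 0.11, edgeR adjusted p = 0.130). Ccl24 (2.00), Ccl19 (1.20) and Ccr9 (1.36) completed the 9 and rest on 2 to 77 edge UMIs per section. Ccl8 and Ccr2 were higher at the edge in 4 of 4 sections and Ccl5 was lower in 3 of 4.

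**Figure D3:**
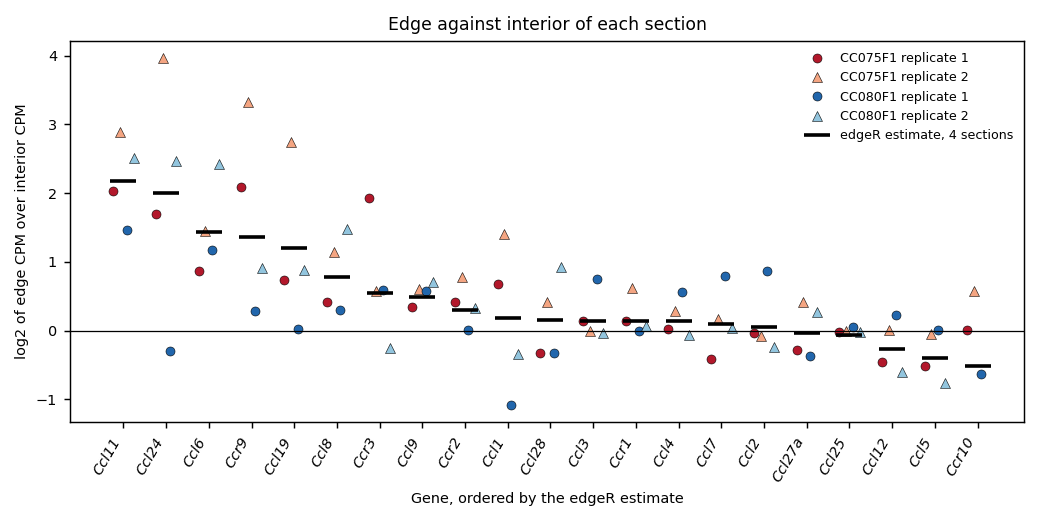
Log2 of edge CPM over interior CPM for the 21 tested genes, each point 1 section and each black bar the edgeR estimate over the 4 sections. Ccr10 in CC080F1 replicate 2 has no point because its edge held 0 UMIs. Ccl11, Ccl6 and Ccl9 lie above 0 in all 4 sections with estimates of 2.18, 1.43 and 0.49, and Ccl5 has an estimate of -0.40.

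By direction alone, 7 of the 21 genes had a higher CPM at the edge than in the interior in all 4 sections, where 17.6% of all tested genes did. These were Ccl6, Ccl8, Ccl9, Ccl11, Ccl19, Ccr2 and Ccr9. No gene of the 21 was lower at the edge in all 4 sections, where 6.88% of all genes were. Ccl11 and Ccl6 fell in CPM at each of the 4 distance bins from the edge inwards in all 4 sections, 2 of 21 where 0.437% of all genes did so. None of the 21 rose at each bin inwards in all 4, where 0.053% of all genes did.

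The fall of Ccl11 went on to the innermost bin, which held only 5 to 15 UMIs of it per section. In CC080F1 replicate 2 it went from 3.30 CPM at 1 to 3 steps to 1.92 at 4 to 6 steps, 0.496 at 7 to 9 steps and 0.145 at 10 or more steps. In CC075F1 replicate 1 it went from 2.68 to 2.17, 0.680 and 0.119 CPM over the same bins. In CC080F1 replicate 1 it went from 1.32 to 0.752, 0.364 and 0.301 CPM. The last 2 of these values rest on 7 UMIs each, so the fall between them is not secure. Ccl6 fell mostly over the first step between bins, from 130 to 39.3, 24.0 and 19.1 CPM in CC080F1 replicate 2 and from 87.3 to 36.3, 31.8 and 30.6 CPM in CC075F1 replicate 2. Ccr2 reached its lowest CPM at 10 or more steps in every section, at 36.2, 16.6, 59.6 and 43.3 CPM.

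**Figure D4:**
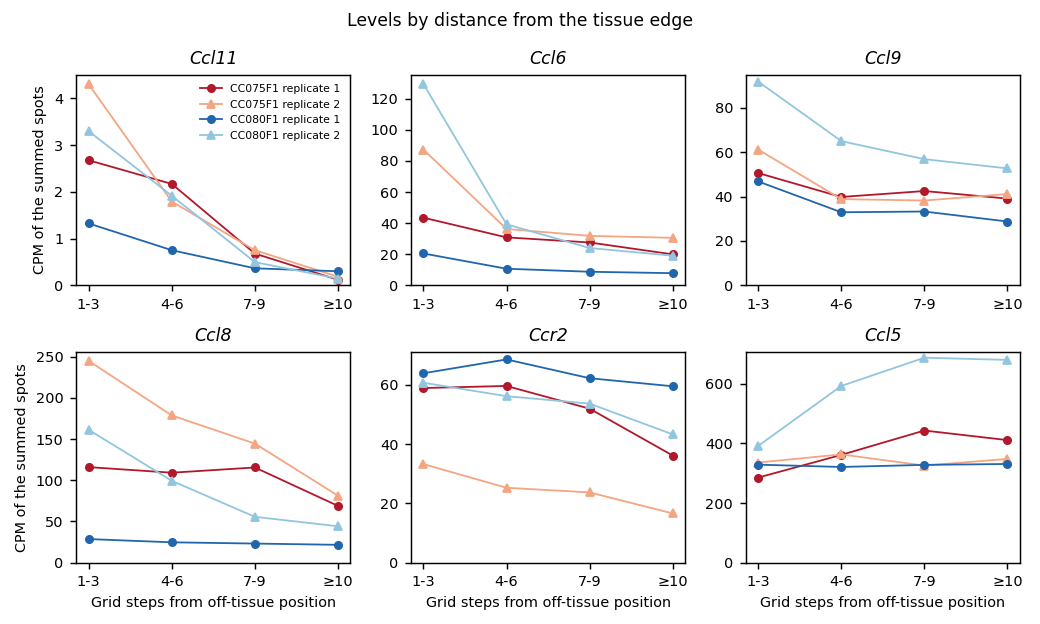
CPM of the summed spots (vertical axis, from 0) in 4 bins of grid steps from the nearest off-tissue position, for 6 genes, 1 line per section. Ccl11 and Ccl6 fall from bin to bin in all 4 lines, with Ccl6 in CC080F1 replicate 2 going from 130 to 19.1 CPM, while Ccl5 in that section goes from 392 to 681 CPM.

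Other cell types' markers also differed between edge and interior. The monocyte markers Ly6c2, Chil3, Plac8 and Vcan were 1.14 to 2.196 times as high at the edge, the neutrophil markers 1.48 to 3.67 times and the mast cell markers Cpa3, Mcpt4 and Kit 1.79 to 3.36 times. The macrophage markers were at 0.90 to 1.33 times and the fibroblast markers at 0.82 to 2.27 times. The adipocyte markers were at 1.09 to 57.9 times and the skeletal muscle markers at 0.80 to 76.3 times, the highest both in CC075F1 replicate 2. Spots under 10000 UMIs and spots where skin, muscle or fat genes passed 0.5% of UMIs were then left out. Ccl11, Ccl6 and Ccl9 were still called, at 2.13, 1.41 and 0.45. The 0.5% limit marked 46 spots of CC075F1 replicate 2 and 1 of CC080F1 replicate 2, so weaker signal of these tissues stayed in. In CC080F1 replicate 1, where it marked 0 spots, adipocyte markers were found in 7.93% of spots. The part of such tissue in these values was not tested. The part of the leukocyte lists in these values was not tested. The eosinophil markers Siglecf, Epx, Prg2 and Il5ra together were at 0.09 to 0.42 CPM, with Epx or Prg2 or both at 0 in each section, and were at 1.06 to 3.34 times at the edge on 10 to 35 UMIs per section. The endothelial markers were at 1.12 to 2.02 times. The plasmacytoid dendritic cell markers were at 1.12 to 6.49 times, on 35 to 128 UMIs per section. The tumor epithelial markers were at 1.46 to 4.11 times, but at 0.85 to 2.44 CPM and 125 to 275 UMIs per section they say little of where the tumor cells lie.

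Whether the edge pattern differed between the strains was tested by the interaction of edge and strain. It called 0 of the 21 genes in edgeR, where it called 16 of all genes (0.106%), 13 positive and 3 negative (20 and 1 when scaled by library size alone), and DESeq2 also called 0 of the 21. At an unadjusted p under 0.05 it had 4 of the 21, against 8.5% of all genes. Ccl7 (-0.68, edgeR adjusted p = 0.445), Ccl9 (-0.32, edgeR adjusted p = 0.484) and Ccl6 (-0.84, edgeR adjusted p = 0.546) had a smaller edge effect in CC075F1, and Ccl1 (1.53, edgeR adjusted p = 0.323) a larger one, none passing the test. Ccl1 and Ccr10 had edge values in opposite directions in the strains, 2 of 21 where 12.8% of all genes did. This count too depended on single sections, since without CC080F1 replicate 1 edgeR called Ccl8 and Ccl6 and without CC080F1 replicate 2 it called Ccl2, Ccl7, Ccl12 and Ccl3.

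Ligands and receptors were then compared spot by spot. For each pair and section a Mantel-Haenszel odds ratio of finding both in a spot was taken over 10 strata of spot depth, and a value of 1 means no association beyond depth. Of 16 known pairs set out, 8 had enough spots in every section, with an expected count of at least 5 in each cell. Their median odds ratio (geometric mean of 4 sections) was 1.29, and 5 of the 8 were above 1 in all 4 sections. This count was 3 with 20 depth strata, where Ccl2 and Ccl12 with Ccr2 had 0.99 in CC075F1 replicate 1. It was 3 with each spot thinned to 10000 UMIs, where Ccl2 with Ccr2 had 0.99 in that section and Ccl7 with Ccr2 had 0.97 in CC080F1 replicate 1. It was 2 with the ligand in a neighbouring spot, Ccl6 and Ccl7 with Ccr1. The 26 other ligand and receptor pairs with enough spots had a median of 1.13, with 11 above 1 in all 4. Spots are not replicates, so these are descriptions without a p-value. The pairs share the same spots and receptors.

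The 5 pairs were Ccr2 with Ccl2, Ccl7 and Ccl12, and Ccr1 with Ccl6 and Ccl7. Ccl2 and Ccr2 had odds ratios of 1.14, 1.28, 3.24 and 1.22 in CC075F1 replicates 1 and 2 and CC080F1 replicates 1 and 2. The high value came from CC080F1 replicate 1, where 97.8% of spots held Ccl2 and few spots without it remained for comparison. Ccl12 and Ccr2 had 1.06, 1.504, 2.06 and 1.23. Ccl6 and Ccr1 had 1.19, 1.76, 1.06 and 1.21. The pairs of Ccl7 with Ccr1 and Ccr2 had 1.07 to 1.65.

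The remaining pairs were those of Ccr1 with Ccl3, Ccl5 and Ccl9. Ccl3 and Ccr1 had 1.06, 1.06, 0.88 and 0.79, above 1 in CC075F1 and below 1 in CC080F1. Ccl9 and Ccr1 had 1.04, 1.34, 0.96 and 1.37. Ccl5 was in 96.8% to 99.1% of spots, so its presence says little, and its pairs with Ccr1 had 1.00, 2.26, 1.12 and 1.24. Split instead at the median Ccl5 level within depth strata, the Ccr1 CPM of the Ccl5-rich spots was 0.82 to 1.09 times that of the Ccl5-poor spots. The same split gave 1.06 to 1.46 times as much Ccr2 in Ccl2-rich spots, 1.05 to 1.37 times in Ccl7-rich spots and 0.95 to 1.53 times in Ccl12-rich spots, the lowest in CC080F1 replicate 1.

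Some pairs not set out as known pairs were also away from 1, where the known pairs had a geometric mean of 1.55 at most. Ccl11 and Ccr2, with 3.18, 2.22, 1.55 and 2.63, had the highest geometric mean of the 34 pairs, at 2.32. Ccl8 had 1.51 with Ccr1 and 1.52 with Ccr2, above 1 in all 4 sections each time. Ccl3 and Ccr2 were below 1 in all 4, at 0.86, 0.98, 0.68 and 0.67. Between the strains, the 8 known pairs overlapped except for Ccl7 with Ccr2 and Ccl3 with Ccr1, for which the two-sided exact permutation test gave its smallest possible p of 0.333.

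**Figure D5:**
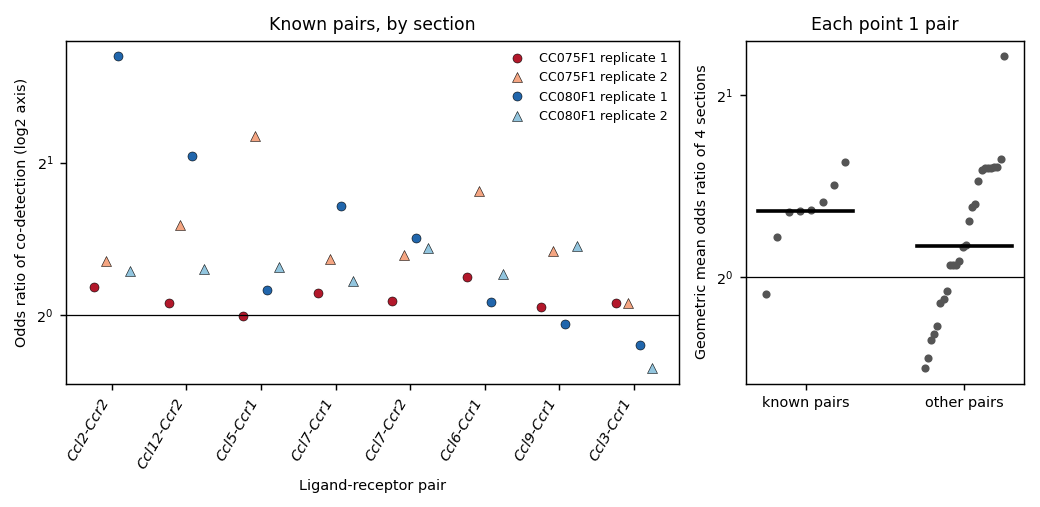
Odds ratios of finding ligand and receptor in the same spot (log2 axes, 1 means no association beyond depth). Left, the 8 known pairs with 1 point per section. Right, the geometric mean of each known pair and each of the 26 other pairs, with the median of each group as a bar, at 1.29 and 1.13.

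Ligands of 1 gene cluster were also set against each other. Ccl3 and Ccl4, neighbours on chromosome 11, were found together with log2 odds ratios of 0.98, 1.07, 0.95 and 1.35 and a mean of 1.09 ± 0.18 (SD, n = 4). Ccl2 with Ccl12 had 1.08, 1.297, 2.55 and 0.55, Ccl7 with Ccl12 had 1.31, 1.99, 1.303 and 0.42, and Ccl2 with Ccl7 had 0.70, 1.32, 1.83 and 0.72. Ccl6 with Ccl9 had 0.49, 0.80, 0.50 and 0.80. All of these were above 0 in all 4 sections, as were 41 of the 91 pairs of genes compared. Not every pair within a cluster was. Ccl3 with Ccl9 had 0.17, 0.15, -0.17 and -0.04, and Ccl4 with Ccl6 had 0.02, 0.34, 0.23 and -0.17. The highest mean among pairs with a value in every section was 1.66, for Ccl2 with Ccl5, which lie in different clusters. That value says little, since Ccl2 was in 91.3% to 97.8% of spots and Ccl5 in 96.8% to 99.1%. Few spots without them remained for comparison, and no minimum expected count was set for these 91 pairs.

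Spots were last split at the median level of each marker list within depth strata. Macrophage-rich spots held 1.58 to 2.90 times as much Ccl8 as macrophage-poor spots, 1.31 to 1.73 times as much Ccr2, 1.32 to 1.67 times as much Ccl12 and 1.18 to 1.75 times as much Ccl6. These 4 genes were not particular to the macrophage list. Monocyte-rich spots held 1.34 to 2.56 times as much Ccl8 and 1.10 to 1.63 times as much Ccr2. They held 1.05 to 1.50 times as much Ccl12 and 1.05 to 2.28 times as much Ccl6. Endothelial-rich spots held 1.51 to 2.10 times as much Ccl8. Ccl6 was 1.87 to 5.26 times as high in eosinophil-rich, 1.05 to 3.80 times in adipocyte-rich and 0.75 to 0.96 times in keratinocyte-rich spots. Ccl8 was 1.14 to 3.64 times as high in adipocyte-rich spots. In plasmacytoid dendritic cell-rich spots Ccl6 was 1.18 to 3.03 times and Ccl8 1.48 to 2.66 times as high. Eosinophil and adipocyte markers were found in at most 1.29% and 7.93% of spots. In macrophage-rich spots Ccl3, at 0.76 to 1.22 times, and Ccl25, at 0.95 to 1.09 times, had no common direction. Ccl1 was 1.43 to 2.88 times as high in T cell-rich spots, 1.605 to 4.25 times in plasmacytoid dendritic cell-rich spots, 1.63 to 2.097 times in NK cell-rich spots and 1.19 to 3.33 times in monocyte-rich spots. The plasmacytoid dendritic cell markers were found in only 1.18% to 3.39% of spots. Their median was therefore 0, and any spot with a UMI of them counted as rich. Ccl1 had 74 to 220 UMIs per section, so few of them lie in those spots. T cell-rich spots held 1.09 to 1.21 times as much Ccl3 and 0.94 to 1.04 times as much Ccl5. These are ranges over 4 sections and carry no test.

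Of the 30 other chemokine system genes listed, which cover atypical receptors, XC and CX3C chemokines, the protease Dpp4 and signalling proteins of chemokine receptors, 29 were tested. The strain, edge and interaction fits called 0 of them in edgeR, with 5, 6 and 8 at an unadjusted p under 0.05, where 5.43%, 18.3% and 8.5% of all genes had one. DESeq2 called Ackr1 and Dpp4 at the edge and none in the other fits. The other alternatives called 0 to 2 between the strains, 0 to 4 at the edge and 0 to 4 in the interaction, the highest without the filter on low counts, without CC080F1 replicate 1 (Rgs16, Ackr1, Grk3 and Arrb1), and, for the interaction, either without the filter or without CC080F1 replicate 2. Their median log2 fold change was 0.14 for CC075F1 over CC080F1 and 0.09 for edge over interior, against -0.02 over all genes in both.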

How the data were processed

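The authors made the UMI count matrices with Space Ranger 1.3.1 on mm10 (GRCm38) and deposited them as raw counts per gene and spot under tissue, with no normalization. The deposited grid positions gave the distance to the nearest off-tissue position in steps. The labels give no slide, batch or plane of section, so these and the strain cannot be told apart. Each section came from its own tumor, so n is 2 per strain.

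Counts were summed per section, or per section and zone, and fitted over all genes in edgeR 4.0.16 (R 4.3.3, TMM, quasi-likelihood, Benjamini-Hochberg adjustment, threshold 0.05), with the section as a block for the edge. Alternatives used limma 3.58.1 and DESeq2 1.42.0. The fits were tested on simulated data. Shares have exact binomial intervals. A gene was present in a spot at 1 UMI. Co-detection used 10 depth strata and marker lists a median split within them. Positions were read from GENCODE vM21 (same build, a release before the authors' annotation) and promoter windows from RefSeq. 1 further gene of the family is not reported here. Every other gene was named, and those with a mean of at least 1 CPM, or called, were given in every section. The genes, lists and pairs were chosen with earlier results of these data known. The authors' scale factor files were not used.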

Additional observations from a re-analysis of the deposited data

Results flagged for a closer look

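Ccl1 and Ccr10 had edge values that went in opposite directions in the strains. For Ccl1, a ligand of Ccr8, the log2 ratio of edge to interior CPM was positive in both CC075F1 sections (0.67 in replicate 1, 1.41 in replicate 2) and negative in both CC080F1 sections (-1.08 in replicate 1, -0.34 in replicate 2). The strain difference of the edge effect was 1.53 on the log2 scale, with an edgeR adjusted p of 0.323 and an unadjusted p of 0.0066, so it did not pass the test. It rests on 12 to 44 edge UMIs per section. Ccl1 was 1.43 to 2.88 times as high in T cell-rich as in T cell-poor spots, and also higher in all 4 sections in spots rich in plasmacytoid dendritic cell, NK cell, monocyte, endothelial and adipocyte markers. The plasmacytoid dendritic cell and adipocyte markers were found in only 1.18% to 3.39% and 1.01% to 7.93% of spots, so their rich spots are few. The T cell markers were at 1.31 and 1.50 times at the edge in CC075F1 and 0.92 and 1.70 times in CC080F1. Their part in the Ccl1 values was not tested.

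For Ccr10 the log2 ratio was 0.01 and 0.57 in CC075F1 and -0.63 in CC080F1 replicate 1, and the edge of CC080F1 replicate 2 held 0 UMIs. The strain difference was 1.55 (edgeR adjusted p = 0.691) and rests on 0 to 12 edge UMIs per section. No section stood apart from the other 3 by Dixon's test in the edge ratios of the 20 genes that had a ratio in every section.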

How the results depend on the processing

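Between the strains, the count of 0 called CC genes held under DESeq2's size factors in edgeR, library size alone, limma-voom, interior spots only and spots of at least 10000 UMIs free of other tissue. It was 1 by DESeq2, 5 without the filter on low counts, and 0 to 4 when a section was left out. With the replicate number as a block it was 3 (Ccl8, Ccl3 and Ccl4), where 287 of all genes were called against 14. The labels do not say what, if anything, sections of 1 number share, and the deviations of replicate 1 from the strain means correlated at 0.39 across 15572 genes, so the block is a hint at most. Library size alone moved the median of all genes from -0.02 to -0.31, with 11 rather than 14 of the 21 CC genes above 0. Ccl24 ranged from -0.41 without CC075F1 replicate 1, a reversal, to 3.63 without CC080F1 replicate 2.

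Between edge and interior, the 3 calls became 5 by DESeq2, 7 without the filter, 1 with an edge of 5 steps, 0 without the section block and 0 to 8 when a section was left out. They stayed at 3 with an edge of 2 steps, the outer boundary alone, both other scalings, clean spots, and spots near the rim of the grid left out, the last chosen after seeing the data. For the strain difference of the edge effect the count was 4 without the filter and 0 to 4 when a section was left out. Without the filter, the strain difference was called in 532 of all genes (2.36%). Calls of it over all genes also rose without either CC080F1 section. Where a section was left out, the lone section of its strain is assumed to vary like the others.

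The 5 known pairs above 1 in all 4 sections became 3 with 20 depth strata, 3 with each spot thinned to 10000 UMIs and 2 with the ligand in a neighbouring spot, and 5 to 6 when a section was left out. They were 4 with the ligand above its median, also chosen after seeing the data. The 11 genes with shares that did not overlap became 6 at 2 UMIs. They were 14 to 19 when a section was left out, 19 without CC080F1 replicate 2. With fewer sections to overlap, that count can only stay or rise. The share of all genes was not taken at these settings. The cause of the other changes was not tested. Direction was followed only for fold changes with a low unadjusted p and for genes with opposite edge directions in the strains. Apart from Ccl24 between the strains, these kept their direction in every alternative run. The fold changes of Ccl2 and Ccl12 between the strains were not followed.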
